A study of Arabidopsis thaliana with 4 samples.

Results

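The genes described here encode the MCM2 to MCM7 subunits of the replicative DNA helicase and the sliding clamp proteins PCNA1 and PCNA2 of *Arabidopsis thaliana*. They were chosen by locus and not by a cutoff on their signal, though with earlier results of these data known. They make up 8 of the 25410 loci measured and 11 of the 43603 gene probes on each array. *MCM2*, *MCM4* and *MCM7* had more than 1 probe. Whole seedlings of the wild type Col-0 (Columbia-0) and of the T-DNA insertion mutant *bli-1* were grown for 12 days in continuous light on Murashige and Skoog medium with sucrose, with no treatment. Total RNA of 2 biological replicates per genotype was labelled with Cy3 for single color Agilent arrays, 1 array per replicate. *BLI* (BLISTER, AT3G23980) encodes a plant protein that interacts with the Polycomb-group methyltransferase CURLY LEAF. The mutant is represented by a single insertion allele. Seeds of *bli-1* germinate late. The general growth methods state that *bli-1* was sown earlier than other genotypes for direct comparisons because of this delay. The array methods give the time of growth and do not repeat that step, and the labels count the age from germination. Whether the array seedlings were also alike in developmental stage is not stated, so a difference in stage cannot be told apart from one in genotype. Because each sample is RNA of whole seedlings, fewer dividing cells and less RNA per dividing cell cannot be told apart in any value below.

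MCM2 to MCM7 form a ring of 6 different subunits that is loaded onto replication origins in G1 phase by the origin recognition complex, CDC6 and CDT1. In S phase the ring is joined by CDC45 and the GINS complex and unwinds DNA ahead of the polymerases. PCNA forms the ring-shaped clamp that holds the replicative polymerases on DNA and is placed there by the clamp loader RFC. In plants these genes are transcribed mostly in dividing cells, under E2F transcription factors, and their transcripts serve as markers of proliferating tissue such as meristems and young leaves.

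The transcript of the mutated gene was checked first. Signal of *BLI* was 9.17 and 8.99 (log2) in Col-0 replicates 1 and 2, against 7.38 and 7.68 in the same replicates of *bli-1*. The *bli-1* arrays thus lay below both Col-0 arrays, by 1.55 on the log2 scale on average, although the adjusted p of 0.0823 (limma) did not pass. The array of *bli-1* replicate 2 stood apart at its dim end. There 91.7% of gene spots were well above background, against 74.7% to 77.4% on the other 3 arrays, and the 25th percentile of raw intensity was 129.5 against 27 to 29. The array of *bli-1* replicate 1 was on another slide than the other 3. Across all loci, replicates differed by a median of 0.11 (log2) in Col-0 and 0.21 in *bli-1*.

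None of the 8 replication genes passed the test between *bli-1* and Col-0. A gene was called when its adjusted p was below 0.05 and its fold change at least 1.5 (limma, Benjamini-Hochberg over all features), and 0 of 8 members were called, where 0.134% of all loci were called, 0.11% higher and 0.0236% lower. At an unadjusted p below 0.05 the count was also 0 of 8, where 5.56% of loci were higher and 6.25% lower, or 3.01% and 2.98% with the minimum fold change. *MCM2*, *MCM3*, *MCM4*, *MCM5*, *PCNA1* and *PCNA2* had a lower mean in *bli-1*, and *MCM6* and *MCM7* a higher mean. Of all loci, 50.7% had a lower mean. The median difference of the 8 genes, *bli-1* minus Col-0, was −0.17 (log2), beside a median of −0.0046 over all loci and of −0.03 over the 19777 loci that were above background on each array. The smallest p that exact two-sided permutation allows for 1 gene with 2 arrays against 2 is 0.333.

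**Figure D1:**
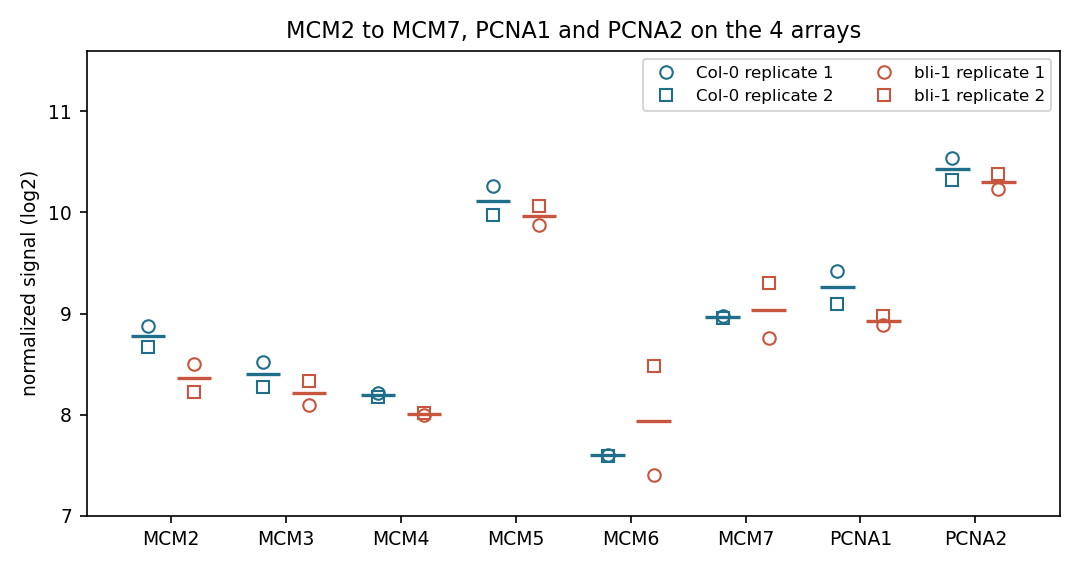
Normalized log2 signal of each gene on the arrays of Col-0 (blue) and *bli-1* (red), with circles for replicate 1, squares for replicate 2 and bars for the mean of 2 arrays. Signals of different probes are not comparable, so only the 4 values of the same gene should be set against each other. The groups are separate for *MCM2*, *MCM4* and *PCNA1* and overlap for the other 5 genes.

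Among the helicase subunits, *MCM2* (AT1G44900) showed the lowest difference. Its log2 signal was 8.88 and 8.66 on the Col-0 arrays and 8.50 and 8.22 on the *bli-1* arrays, so that both *bli-1* values were below both wild type values. The difference was −0.41 with an SE of 0.17 and a 95% interval of −0.84 to 0.02, or 0.75-fold, and did not pass the test (limma, adjusted p = 0.515). MCM2 carries a histone-binding region at its end in other eukaryotes, besides its place in the ring.

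*MCM4* (AT2G16440), a subunit of the catalytic core of the ring together with MCM6 and MCM7, was the other helicase gene with separate groups. Signal was 8.22 and 8.17 in Col-0 against 7.99 and 8.02 in *bli-1*. In the mean of its 2 probes the replicates of each genotype were close together. The difference of −0.19 (SE 0.12, interval −0.50 to 0.13) was the most precise of the 8. The groups were separate in 1 of the 2 probes and overlapped in the other. Its adjusted p was 0.64 (limma).

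In *MCM3* (AT5G46280) and *MCM5* (AT2G07690), whose products sit with MCM2 in the regulatory part of the ring, the array of *bli-1* replicate 1 was the lowest of the 4 and that of replicate 2 lay between the Col-0 arrays. *MCM3* gave 8.52 and 8.28 in Col-0 against 8.10 and 8.33 in *bli-1*, a difference of −0.18 (SE 0.16). *MCM5* gave 10.26 and 9.98 in Col-0 against 9.88 and 10.06 in *bli-1*, a difference of −0.15 (SE 0.16). Neither difference exceeded the spread between replicates, with adjusted p of 0.682 and 0.734 (limma).

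The 2 genes with a higher mean in *bli-1* owed it to the same array. Signal of *MCM6* (AT5G44635) was 7.60 and 7.59 in Col-0, and in *bli-1* it was 7.40 in replicate 1 and 8.48 in replicate 2. The *bli-1* replicates therefore lay on either side of a nearly constant wild type level, and the difference of 0.34 had an SE of 0.37 and an interval of 0.655-fold to 2.46-fold (limma, adjusted p = 0.729). *MCM7* (AT4G02060), known as PROLIFERA and required for embryo development, showed the same order with 8.98 and 8.96 in Col-0 against 8.76 and 9.31 in *bli-1*. Its difference was 0.06 (SE 0.21, interval −0.49 to 0.62, limma adjusted p = 0.916). When *bli-1* replicate 2 was left out, the differences turned to −0.21 for both *MCM6* and *MCM7*.

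Of the clamp genes, *PCNA1* (AT1G07370) had separate groups and *PCNA2* (AT2G29570) did not. *PCNA1* gave 9.42 and 9.10 in Col-0 against 8.88 and 8.97 in *bli-1*, a difference of −0.33 (SE 0.16, interval −0.76 to 0.09, limma adjusted p = 0.589). *PCNA2* gave 10.54 and 10.32 in Col-0 against 10.23 and 10.38 in *bli-1*, a difference of −0.13 (SE 0.15, limma adjusted p = 0.744). Both genes were highest on the array of Col-0 replicate 1 and lowest on that of *bli-1* replicate 1. The clamp genes are close copies, and how far each probe separates them was not analysed here.

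**Figure D2:**
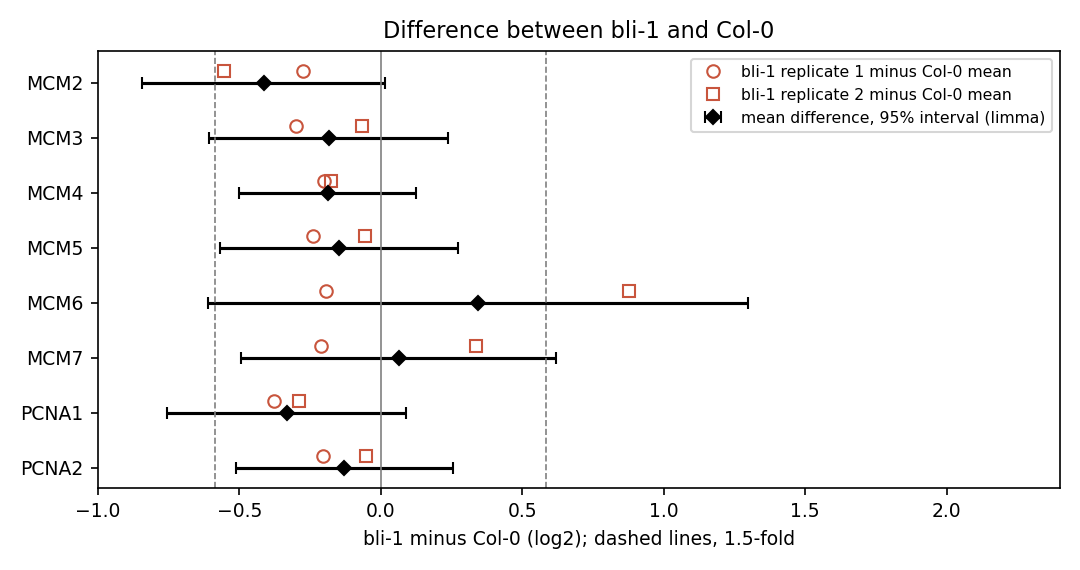
Difference between *bli-1* and Col-0 for each gene on the log2 scale, with diamonds for the mean difference, black bars for its 95% interval from limma, and open symbols for each *bli-1* array minus the Col-0 mean. All 8 intervals include 0, and that of *MCM6* is the widest, from 0.655-fold to 2.46-fold.

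The intervals gave a firmer bound on rises than on falls. A 1.5-fold rise lay outside the 95% interval of 6 genes and within those of *MCM6* and *MCM7*, and for *MCM2* and *PCNA1* it lay outside under every alternative run. A 1.5-fold fall lay outside the interval for 4 genes, *MCM4*, *MCM5*, *MCM7* and *PCNA2*, at the offset of 50 used here, but for 0 of 8 with an offset of 0 or 16, so it cannot be set aside for any of them.

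Read array by array, the 8 genes were uniform in *bli-1* replicate 1 and not in replicate 2. On the array of replicate 1 all 8 genes were below both Col-0 arrays, where 38.5% of all loci were. On that of replicate 2 only *MCM2*, *MCM4* and *PCNA1*, 3 of 8, were below both, beside 43.1% of loci. Both *bli-1* arrays were below both Col-0 arrays for 3 of 8 genes, beside 24.1% of loci, and above them for 0 of 8, beside 22.7%. The highest array was Col-0 replicate 1 for 6 genes and *bli-1* replicate 2 for 2, and the lowest was *bli-1* replicate 1 for 7 genes and replicate 2 for *MCM2*. The mean log2 signal of the 8 genes was 9.05 and 8.88 in Col-0 against 8.72 and 8.97 in *bli-1*, so the means of the genotypes overlapped. The Col-0 arrays thus differed from each other in the same genes, by 0.17 on this mean. Whether slide had a part in the low values of *bli-1* replicate 1 was not tested, since no Col-0 array was on its slide.

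The spread between the *bli-1* replicates came from the dimmer probes. All 11 probes were well above background on all 4 arrays and 0 were marked as outliers. Of the 11, the dim probe of *MCM2*, the probe of *MCM6* and the dim probe of *MCM7* had a mean Col-0 signal under 7.98 (log2), in the second of 4 equal classes of probes from dim to bright. In these 3 probes replicate 2 minus replicate 1 of *bli-1* was −0.72, 1.07 and 0.99 (log2), and in the other 8 probes it was −0.11 to 0.23. Over all probes of that class, the median absolute difference between replicates was 0.415 in *bli-1* and 0.10 in Col-0, against 0.163 and 0.145 in the brightest class. With its sign, the median of replicate 2 minus replicate 1 of *bli-1* was −0.26 in that class and 0.03 in the brightest. The dim *MCM2* probe had the sign of its class, and the *MCM6* and dim *MCM7* probes had the opposite sign. The part of the raised dim end of that array in these 3 probes was not tested.

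Raw intensities showed this gap for the probes of *MCM6* and *MCM7* and not for *MCM2*. The *MCM6* probe read 102 and 129 intensity units on the Col-0 arrays, 115 on the array of *bli-1* replicate 1 and 436 on that of replicate 2, with local backgrounds of 18 to 20. The dim *MCM7* probe read 56 and 71.5 in Col-0 against 62.5 and 312 in *bli-1*. The dim *MCM2* probe read 122 and 121 in Col-0 against 114 and 156 in *bli-1*, so it was brightest on the array of replicate 2 before normalization and lowest there after it. The bright *MCM7* probe read 1330 and 1823 in Col-0 against 1715.5 and 1981 in *bli-1*. The *MCM6* probe and the dim *MCM7* probe were thus far brighter on the array of replicate 2 than on the other 3, and the bright *MCM7* probe was not.

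Different probes of a gene differed in sign for *MCM7* and not for *MCM2* or *MCM4*. The bright *MCM7* probe had a normalized signal of 10.96 and 10.83 in Col-0 against 10.59 and 10.69 in *bli-1*, with both *bli-1* arrays lower and a difference of −0.26 (SE 0.14). The dim *MCM7* probe had 6.996 and 7.09 in Col-0 against 6.93 and 7.92 in *bli-1*, with a difference of 0.38 (SE 0.34). For *MCM2*, the bright probe differed by −0.21 (SE 0.14), with 9.93 and 9.80 in Col-0 against 9.57 and 9.73 in *bli-1*. Its dim probe differed by −0.62 (SE 0.28), with 7.83 and 7.53 in Col-0 against 7.42 and 6.71 in *bli-1*. The probes of *MCM4* differed by −0.25 and −0.13. With the brightest probe of each gene in place of the mean, 7 of 8 genes were lower in *bli-1* and the median difference was −0.20.

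**Figure D3:**
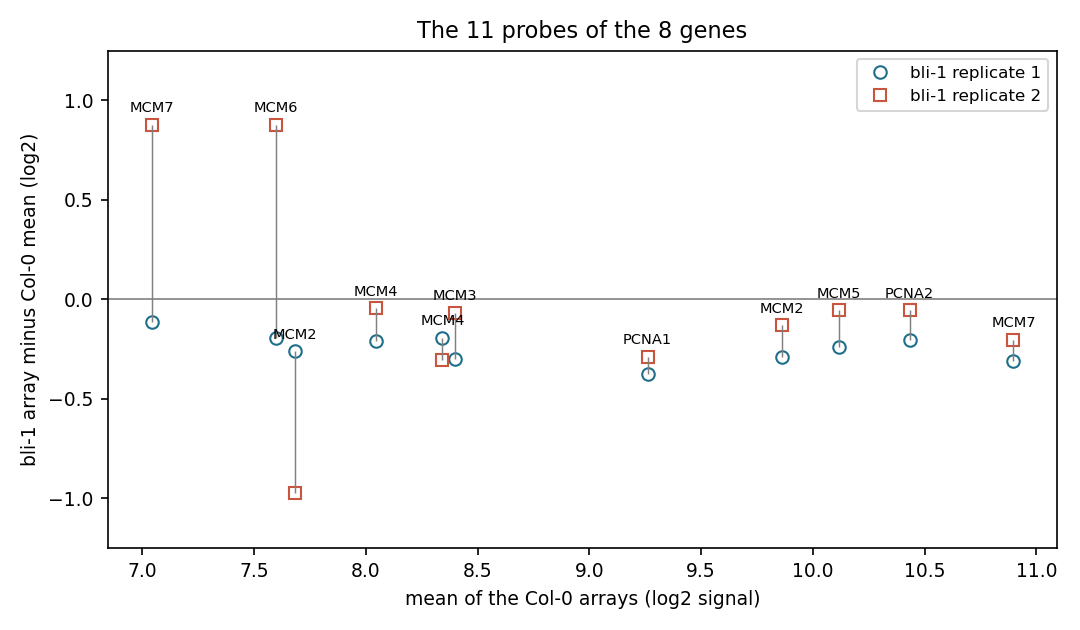
Each of the 11 probes placed by its mean log2 signal on the Col-0 arrays, with the difference of *bli-1* replicate 1 (blue circle) and replicate 2 (red square) from that mean. At the bright end the replicates lie close together below 0, and the 3 dimmest probes reach 0.72 to 1.07 between replicates, in both directions.

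Among the genes that load the helicase, 0 of 11 were called and 0 reached an unadjusted p below 0.05. The origin recognition complex, CDC6 and CDT1 genes had a median difference of −0.11, with 7 of 11 lower, which shrank to −0.04 without *bli-1* replicate 2. *CDT1B* had the lowest value at −0.31 (SE 0.13), with 7.42 and 7.33 in Col-0 against 7.14 and 6.998 in *bli-1* (limma, adjusted p = 0.547). *CDC6B* had the highest at 0.29 (SE 0.34), with 7.02 and 6.95 in Col-0 against 6.79 and 7.76 in *bli-1*. *CDC6B* was thus high only on the array on which *MCM6* was high.

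The genes that activate the helicase gave a similar picture, with 0 of 8 called, 5 of 8 lower and a median of −0.03, which became 0.01 without *bli-1* replicate 1. *CDC45*, part of the active helicase, had 8.51 and 8.40 in Col-0 against 8.27 and 7.82 in *bli-1*, a difference of −0.41 (SE 0.19, limma adjusted p = 0.573). *MCM10*, which takes part in helicase activation and is no subunit of the ring, had 6.99 and 6.90 in Col-0 against 6.84 and 7.74 in *bli-1*. Its difference of 0.35 (SE 0.31) again came from replicate 2 alone.

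At the replication fork 0 of 33 polymerase, clamp loader, single-strand binding, ligase, chromatin assembly and nucleotide supply genes were called. There were 23 of 33 lower in *bli-1*, with a median of −0.16 that shrank to −0.08 without Col-0 replicate 1 and to −0.09 without *bli-1* replicate 2. Of the 33, 2 were higher and 3 lower at an unadjusted p below 0.05. The largest values, in opposite directions, belonged to enzymes of deoxynucleotide supply. *TK1A*, a thymidine kinase, had 10.25 and 10.17 in Col-0 against 10.74 and 10.77 in *bli-1*, so both *bli-1* arrays were higher, by 0.54 (SE 0.12, limma adjusted p = 0.26). *RNR2A*, a small subunit of ribonucleotide reductase, had 8.82 and 8.81 in Col-0 against 8.45 and 8.30 in *bli-1*, so both were lower, with a difference of −0.44 (SE 0.13, limma adjusted p = 0.371). Over all 52 measured replication genes outside the MCM2 to MCM7 and PCNA genes, 35 were lower, the median was −0.09, and both *bli-1* arrays were below both Col-0 arrays in 19 and above in 5. The shares of the 52 were 67.3% lower and 36.5% separate and lower, against 75% and 37.5% of the 8 genes. The same shares over all loci were 50.7% and 24.1%, with 22.7% separate and higher.

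Histone genes that are transcribed in S phase were lower in all 13 of the 13 measured, with a median of −0.24, and 11 of 13 had both *bli-1* arrays below both Col-0 arrays. The shares over all loci were 50.7% lower and 24.1% separate and lower. Of the 13 histone genes 0 were called, and 2 were lower and 0 higher at an unadjusted p below 0.05. The histone H4 gene AT5G59970 had 12.46 and 12.16 in Col-0 against 11.77 and 11.80 in *bli-1*, a difference of −0.53 (SE 0.15, limma adjusted p = 0.369). The histone H4 gene AT3G53730 had the smallest difference, −0.11 (SE 0.16). Histone genes of a class are near-identical copies, so signal can be shared between them and the 13 are not independent. These bright probes varied less between the *bli-1* replicates than the dim MCM probes did. With either *bli-1* array left out 13 of 13 stayed lower, with medians of −0.21 and −0.32. The Col-0 arrays also differed in these genes, and the median was −0.15 without Col-0 replicate 1 and −0.35 without Col-0 replicate 2.

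**Figure D4:**
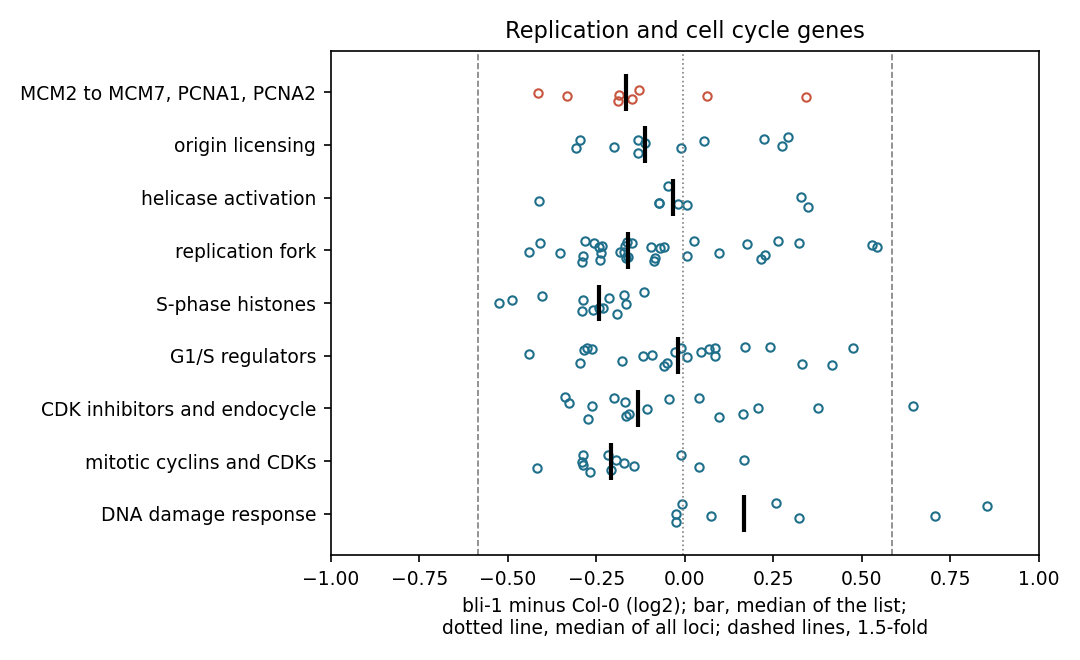
Difference between *bli-1* and Col-0 (log2) of each measured gene, by group, with black bars for the group median, a dotted line for the median of all loci and dashed lines for a 1.5-fold change. Medians lie at −0.24 for S-phase histones, −0.17 for MCM2 to MCM7 with PCNA1 and PCNA2, and 0.17 for the DNA damage response, where *RAD17* and *GMI1* lie past 1.5-fold.

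Mitotic and cell cycle regulators did not pass the test either. Of the B-type cyclins and B-type cyclin-dependent kinases, which act at mitosis, 11 of 13 were lower and 0 were called. The median was −0.21, or −0.10 without *bli-1* replicate 2. In 9 of 13 both *bli-1* arrays were below both Col-0 arrays, and in 1 both were above. Over all loci 50.7% were lower, and 24.1% were below and 22.7% above in this way. The lowest was *CDKB1;2* at −0.42 (SE 0.18, limma adjusted p = 0.544), and *CYCB1;1*, a cyclin also known to respond to DNA damage, was highest at 0.17 (SE 0.13). Regulators of the G1/S transition, which include the E2F factors that drive MCM and PCNA genes, had a median of −0.02 with 12 of 22 lower and 0 called, and the median ranged from −0.08 to 0.01 as each array was left out. Their extremes were the atypical E2F genes *DEL1* at −0.44 (SE 0.20) and *DEL3* at 0.47 (SE 0.34), and *DEL3* was high only on the array of replicate 2, with 8.42 against 7.39 to 7.52 on the others.

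Inhibitors of cyclin-dependent kinases and endocycle genes, which act when cells leave the division cycle, had a median of −0.13, which became 0.02 without *bli-1* replicate 2, with 0 of 16 called and 2 higher at an unadjusted p below 0.05. *SMR7*, a SIAMESE-related inhibitor known to be induced by DNA damage, had 7.99 and 8.17 in Col-0 against 8.88 and 8.56 in *bli-1*. Both *bli-1* arrays were higher, with a difference of 0.65 (SE 0.17, limma adjusted p = 0.317). *KRP3*, a KIP-related inhibitor, had the lowest value at −0.34 (SE 0.15).

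DNA damage response genes had a positive median of 0.17, with 5 of 8 higher on both *bli-1* arrays than on both Col-0 arrays, 0 lower in this way and 0 called. Over all loci, 22.7% were higher and 24.1% lower in this way. By the mean, 3 of the 8 damage response genes were lower in *bli-1*. *RAD17*, a checkpoint gene, had 8.20 and 8.28 in Col-0 against 8.79 and 9.39 in *bli-1*, a difference of 0.85 (SE 0.23, limma adjusted p = 0.33). *GMI1*, a repair gene known to be induced by DNA damage, had 7.42 and 6.96 in Col-0 against 7.90 and 7.89 in *bli-1*, a difference of 0.71 (SE 0.19, limma adjusted p = 0.333).

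Markers of the tissues in which the replication genes are used varied between arrays as well. Of the genes of shoot meristems and dividing leaf tissue, 6 of 10 were lower, 5 with both *bli-1* arrays below both Col-0 arrays and 3 with both above, and 0 were called. Over all loci, 24.1% were below and 22.7% above in this way. The median difference of the list was −0.22, but it turned to 0.46 when the scanner software's own signal was scaled to its 75th percentile, which moved the median of all loci to 0.18. It was −0.15 without either *bli-1* array. The summed signal of the list was 3717 and 4090 in Col-0 against 3297 and 3152 in *bli-1*. *GRF5*, which promotes cell division in leaves, had the lowest value at −0.45 (SE 0.19), and the meristem gene *KNAT1* was at 0.34 (SE 0.15). *CLV3*, a stem cell gene, was not well above background in Col-0. It was 1.51-fold higher in *bli-1*, with an interval of 1.2 to 1.9, without passing the test (limma, adjusted p = 0.247). *WUS*, which marks the organizing centre of the shoot meristem, was not well above background on any array.

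Root markers were lower in 9 of 13, with a median of −0.17 and 0 called. The median deviation of the list from the Col-0 mean was −0.02 on the array of *bli-1* replicate 1 and −0.81 on that of replicate 2. The summed signal of the list, in which the brightest genes weigh most, was 20147 and 18021 in Col-0 against 26119 and 13252 in *bli-1*. The root hair genes *EXPA7* and *EXPA18* differed by −1.18 (SE 0.37) and −1.14 (SE 0.34), and *WOX5*, of the root stem cell niche, by 0.54 (SE 0.36). *WOX5* was high only on the array of replicate 2, with 7.81 against 6.75 in replicate 1. The nitrate transporter gene *NRT2.1* was at 0.501-fold in *bli-1*, with an interval of 0.264 to 0.951 (limma, adjusted p = 0.457). Its Col-0 replicates were far apart, at 8.09 and 7.06, against 6.61 and 6.55 in *bli-1*. *PLT2* and *SMB* were not well above background on every array. Markers of green tissue were higher in 7 of 10, with a median of 0.07, 0 called, a median of −0.10 without *bli-1* replicate 2, and summed signals of 389308 and 443914 in Col-0 against 397886 and 445694 in *bli-1*. Among them *RCA*, the Rubisco activase gene, had the lowest value at −0.82 (SE 0.16, limma adjusted p = 0.208), and *LHCB2.1*, a light-harvesting gene, the highest at 0.41 (SE 0.32). The part of tissue composition in the replication gene values was not tested.

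Within the slide that carried both Col-0 arrays and *bli-1* replicate 2, the differences rest on a single *bli-1* array, which is assumed to vary like the Col-0 arrays. There *MCM6* was called at 0.88 (limma, adjusted p = 0.00362), the only one of the 8, where 8.12% of all loci were called higher and 7.57% lower. *MCM2* reached an adjusted p of 0.0326 (limma) at −0.55, short of 1.5-fold. *MCM7* was at 0.34, *PCNA1* at −0.29 and *MCM4* at −0.18, and *MCM3*, *MCM5* and *PCNA2* were between −0.07 and −0.05. The *bli-1* array these values rest on has the raised dim end. Over probes with a mean Col-0 signal of 6.48 to 7.98 (log2), the *bli-1* replicates differed most, by a median absolute difference of 0.415. The signed median of replicate 2 minus replicate 1 there was −0.26. *MCM6* lay in that range, and of the genes named next so did *GMI1*, *CDC6B*, *MCM10*, *FAS2*, *DPB2*, *DEL3*, *DEL1*, *CDKB2;2* and *GRF5*. *CYCD7;1* was dimmer, and *BLI*, *RAD17*, *CDC45*, *CDKB1;2* and *RCA* were brighter. The part of the dim end in these calls was not tested. Outside the 8 genes, *BLI* was called in this fit at −1.40 (limma, adjusted p = 0.00105), *RAD17* at 1.15 (0.00151) and *GMI1* at 0.70 (0.0429). Of the other replication genes, *CDC6B* (0.78), *MCM10* (0.80) and *FAS2* (0.91), of the chromatin assembly factor CAF-1, were called higher. *CDC45* (−0.64) and *DPB2* (−0.64), of DNA polymerase epsilon, were called lower. Among cell cycle regulators *DEL3* (0.97) and the D-type cyclin gene *CYCD7;1*, which was not well above background on every array, were called higher and *DEL1* (−0.66), *CDKB1;2* (−0.61) and *CDKB2;2* (−0.60) lower. Of the tissue markers, 5 of 13 root markers were called lower and 1 higher, with *GRF5* and *RCA* lower. With only *bli-1* replicate 1 against Col-0, all 8 genes were lower, with a median of −0.23, where 50.6% of all loci were lower.

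The order of the 4 arrays in the mean profile of the 8 genes was Col-0 replicate 1, *bli-1* replicate 2, Col-0 replicate 2 and *bli-1* replicate 1, with centred log2 values of 0.15, 0.06, −0.02 and −0.19. Of 12741 loci with at least as much spread over the arrays, 25 had a Pearson r above 0.99 to this profile. The 5 most alike were AT3G51230, *GATA2*, which encodes a GATA transcription factor, AT5G66530, AT4G39170 and AT2G27402. None belongs to the replication or cell cycle lists, their differences between genotypes were −0.24 to −0.15, and with 4 points shared by all loci the likeness is a description only.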

How the data were processed

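The authors deposited, for each of the 4 arrays, spot and local background intensities from the scanner software (Agilent Feature Extraction 11.0.1.1, per the file headers), without normalization between arrays. Each array held 43803 gene spots, with 0 saturated, and 2 arrays per genotype limit the precision. In R 4.3.3 with limma 3.58.1, median intensities were background corrected (normexp, offset 50, a choice made here since the methods name no offset). Control spots were left out, outlier spots were set to missing, and log2 transformation was followed by quantile normalization. Of 35703 RefSeq spots, 34432 were matched to a locus by accession (RefSeq, TAIR10.1). Spots and then probes of a locus were averaged, giving 34290 features, of which 25410 were loci. Genotypes were compared with lmFit and eBayes (prior degrees of freedom 2.79), two-sided, with Benjamini-Hochberg adjustment over all features, and the procedure was tested on simulated data. Intervals are 95%. Summed signals of a list add the normalized signals on a linear scale, so the brightest genes of a list weigh most. For *CLV3*, dim in Col-0, the fold is a point estimate and not a minimum. The offset pulls differences of dim genes toward 0.

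The 8 genes and all lists were chosen with earlier results of these data known. Named genes were the 8 members, *BLI*, in each list the genes at an unadjusted p below 0.05 and at least 1.5-fold and those with the largest rise and fall, and the 5 loci most alike in profile; *WUS*, *PLT2* and *SMB* were named for being dim, and *FAS2*, *DPB2*, *CYCD7;1* and *CDKB2;2*, after their values were seen, for calls within a slide. 1 gene that this rule names is not reported here. In the lists 157 of 162 genes had a probe. Replicate numbers do not pair samples by the labels, and same-numbered deviations correlated at 0.07 across loci. Alternatives covered background correction, normalization, dim and outlier spots, probe choice, the variance model, slide and replicate blocks, unadjusted p, and leaving out each array, with the other 3 normalized anew.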

Additional observations from a re-analysis of the deposited data

How the results depend on the processing

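The median difference of the 8 genes stayed negative under all 15 alternatives run for it, from −0.26 without Col-0 replicate 2 to −0.04 without Col-0 replicate 1. It was −0.06 with the slide as a block and −0.17 with the replicate number as a block. Scaling the scanner software's signal to its 75th percentile moved the median of all loci to 0.18 and that of the 8 genes to −0.11, and the same scaling after normexp moved them to −0.09 and −0.18. The only member called under any alternative was *MCM6*: 1 gene higher with the slide as a block, and 0 to 1 as each array was left out, the 1 being without *bli-1* replicate 1 (0.82, limma adjusted p = 0.011). The difference of *MCM6* turned to −0.21 without *bli-1* replicate 2. That of *MCM7* turned to −0.013 with 75th percentile scaling after normexp, −0.26 with the brightest probe and −0.21 without *bli-1* replicate 2, the low end of a range up to 0.30 as each array was left out. The other 6 genes kept their sign in 16 alternatives, but some came close to 0. Without Col-0 replicate 1 *MCM5* was at −0.0077, *PCNA2* at −0.02, *MCM3* at −0.06 and *PCNA1* at −0.17. Without *bli-1* replicate 1 *MCM3* was also at −0.06, *MCM5* at −0.05 and *PCNA2* at −0.05, and *MCM2* ranged from −0.78 to −0.21 over all settings. Scaling the scanner software's signal to its 75th percentile turned the median of origin licensing genes to 0.17, helicase activation to 0.14, G1/S regulators to 0.15, CDK inhibitors to 0.03 and green tissue markers to −0.07, and left mitotic genes at −0.005 and fork genes at −0.06. Over all loci limma called 28 higher and 6 lower. It called 0 in either direction with offset 0, subtraction, both uses of the scanner software's signal, 75th percentile scaling after normexp and the replicate block, where 817 to 2792 loci had an unadjusted p below 0.05. It called 8 and 1 with offset 16, 75 and 24 with the filter on dim probes, 73 and 31 with trend and robust options, 2063 and 1924 with the slide as a block, and 765 and 756 at an unadjusted p. Leaving out each array gave 0 to 1908 higher and 0 to 1643 lower. The causes were not tested. No replicate number paired the samples, and the block left 0 of 8 members called.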
